A study of Homo sapiens with 20 samples.

Results

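Extracellular NAMPT (eNAMPT) alone was set against no treatment in 10 RNA sequencing libraries of immortalized human pericytes, out of 20 in the series. The members are the 5 libraries titled for NAMPT and the 5 titled as control, chosen by their titles and not by any measured value. All 20 libraries come from 1 wild-type line from Celther, CL 05008-CLTH, grown in serum-containing medium. The eNAMPT group received recombinant human eNAMPT at 500 ng/mL for 4 h and no PDGF-BB. The control group received neither factor, and the labels name no vehicle for it. The other 10 libraries received PDGF-BB at 20 ng/mL for 4 h, with eNAMPT at 500 ng/mL in 5 of them and without it in the other 5. The labels number the replicates of each group as biological replicates 1 to 5 but do not say whether these were separate cultures, so the p-values measure spread between libraries. In the gene tests this is the spread within groups, over all 20 libraries, that is left after replicate number is fitted.

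NAMPT is the enzyme that makes nicotinamide mononucleotide in the salvage route to NAD, and cells also secrete it. Outside the cell it has been described as a ligand of TLR4, the receptor best known for sensing bacterial lipopolysaccharide. TLR4 signals through adaptor proteins to the IkB kinases, which mark the inhibitor IkB-alpha for destruction and so free NF-kB dimers to enter the nucleus. There they switch on chemokines, adhesion molecules and the genes of their own inhibitors, which close the loop. Pericytes are mural cells that wrap capillaries, depend on PDGF-BB from the endothelium, and can attract and hold leukocytes when inflamed.

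NF-kB binds a short DNA motif near the start of many of its target genes. The promoters of 5 genes that rose with eNAMPT and of 1 that fell are shown here because they span the groups of genes described below. Each sequence is the 250 bases before the gene's start, 5′ to 3′ on the gene's strand, from RefSeq on GRCh38.p14. Capitals mark matches to the NF-kB consensus GGGRNNYYCC on either strand and, in IL11 alone of these 6, to the AP-1 motif TGANTCA. In these motifs R is A or G, Y is C or T, and N is any base.
NFKBIA, chr14:35404750-35404999, minus strand: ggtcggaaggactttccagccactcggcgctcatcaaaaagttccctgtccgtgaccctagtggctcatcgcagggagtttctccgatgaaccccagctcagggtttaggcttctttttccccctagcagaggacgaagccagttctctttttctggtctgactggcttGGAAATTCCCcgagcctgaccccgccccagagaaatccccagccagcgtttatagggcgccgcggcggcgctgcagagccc
CXCL1, chr4:73869143-73869392, plus strand: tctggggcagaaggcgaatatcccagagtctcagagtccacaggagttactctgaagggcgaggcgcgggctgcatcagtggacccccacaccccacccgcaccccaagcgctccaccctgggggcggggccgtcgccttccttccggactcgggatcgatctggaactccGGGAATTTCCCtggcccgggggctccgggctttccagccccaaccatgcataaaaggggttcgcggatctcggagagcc
VCAM1, chr1:100719492-100719741, plus strand: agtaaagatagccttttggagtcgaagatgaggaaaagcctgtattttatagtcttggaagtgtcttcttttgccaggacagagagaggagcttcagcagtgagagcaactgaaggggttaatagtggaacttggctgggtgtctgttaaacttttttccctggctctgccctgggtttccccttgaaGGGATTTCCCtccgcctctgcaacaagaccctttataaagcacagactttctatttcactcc
TNFAIP3, chr6:137867009-137867258, plus strand: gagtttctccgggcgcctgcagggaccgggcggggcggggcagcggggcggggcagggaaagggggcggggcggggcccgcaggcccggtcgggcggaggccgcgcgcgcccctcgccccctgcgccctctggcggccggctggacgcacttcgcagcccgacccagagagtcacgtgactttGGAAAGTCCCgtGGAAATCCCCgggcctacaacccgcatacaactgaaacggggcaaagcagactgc
IRF1, chr5:132490774-132491023, minus strand: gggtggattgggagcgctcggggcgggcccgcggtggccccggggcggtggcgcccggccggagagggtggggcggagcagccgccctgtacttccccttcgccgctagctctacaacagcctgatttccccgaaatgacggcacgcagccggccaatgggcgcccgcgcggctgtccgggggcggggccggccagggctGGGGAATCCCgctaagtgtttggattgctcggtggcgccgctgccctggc
IL11, chr19:55370464-55370713, minus strand: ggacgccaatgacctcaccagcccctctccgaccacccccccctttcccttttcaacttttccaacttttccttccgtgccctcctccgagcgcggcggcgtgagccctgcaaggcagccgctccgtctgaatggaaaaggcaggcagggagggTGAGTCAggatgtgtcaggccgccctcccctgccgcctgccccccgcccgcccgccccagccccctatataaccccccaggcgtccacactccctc
The match begins 81 bases before the start in NFKBIA, 62 in VCAM1 and 50 in IRF1. TNFAIP3 holds a pair of matches, at 67 and 55 bases. The capitals in CXCL1 are overlapping matches at 79 and 78 bases, and CXCL3 has the same overlapping matches at the same distances. In CXCL6 the same letters lie at 90 and 89 bases.

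RefSeq promoters of 300 bases, 250 before the start and 50 after it, were found for 16 of the 18 genes that rose and 2 of the 3 that fell. CCL2, IER3 and STC1 had no entry. The NF-kB consensus occurred in 11 of the 16 (68.8%), in 13% of the 9194 promoters of tested genes and in 10.8% of all 27305. The AP-1 motif occurred in 1 of the 16 (6.25%), that of CXCL8, and in 4.27% of the promoters of tested genes. The CXCL8 promoter also holds TGGAATTTCC, which differs from the CXCL1 match GGGAATTTCC in its opening letter alone and so was not counted for NF-kB. Of the 2 promoters of genes that fell, neither holds the NF-kB consensus and that of IL11 holds the AP-1 motif. The RefSeq starts of NR2F2, SOD2, IFI44L, MX1, CXCL6 and CXCL3 lie well inside the GENCODE gene and those of TNFAIP3, CXCL8, PTX3, BIRC3, CLDN1 and IRF1 a shorter way inside, so these windows and the distances in them may not be counted from the start in use. These counts describe letters in a window and were not tested.

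The cells carried mural transcripts in both groups, and transcripts of the fibroblast list as well. Levels are given as CPM, in which the gene counts of each library are scaled to one common total after correction for library makeup. PDGFRB, the PDGF-BB receptor that marks pericytes, stood at 117 ± 14.9 CPM with eNAMPT and 133.5 ± 11.4 CPM in control (SD, n = 5 each). The proteoglycan gene CSPG4, which encodes NG2, stood at 60.3 ± 6.04 CPM with eNAMPT and 53.5 ± 9.16 CPM in control. RGS5, a regulator of G protein signalling typical of pericytes, stood at 21.2 ± 5.35 and 21.9 ± 4.73 CPM. The mural marker HIGD1B had 0 counts in all 10 libraries, and DES, the muscle filament desmin, had 2 counts in all with eNAMPT and 9 in control. Leukocyte markers summed to 4.44 to 10.5 CPM with eNAMPT and 3.61 to 8.72 CPM in control, with CD3E, MS4A1, ITGAM, LYZ, NKG7 and TYROBP at 0 in all 10 libraries. Endothelial markers summed to 3.19 to 8.24 CPM with eNAMPT and 4.78 to 11.9 CPM in control, with EMCN at 0. Fibroblast markers summed to 3410 to 4160 CPM with eNAMPT and 3300 to 4280 CPM in control. For mural markers the sums were 4970 to 5530 and 5040 to 5690 CPM. PDGFRB, CSPG4 and RGS5 make up only a small part of the mural sums, so these sums do not weigh mural against fibroblast identity. Epithelial markers summed to 140 to 188 and 158 to 202 CPM, mostly from KRT18 (150 ± 19.5 and 161 ± 16.6 CPM). Neural and glial markers summed to 28.4 to 45.8 and 31.3 to 52.9 CPM. No member of any marker list passed.

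Libraries held 3102071 to 3659494 gene counts with eNAMPT and 2963873 to 3726752 in control. Mitochondrial transcripts took 9.07 ± 0.400% of gene counts with eNAMPT and 9.15 ± 0.472% in control. Over 5 library measures (total counts, mitochondrial share, spike-in share, genes detected and the share of the 100 highest genes) the adjusted p of an exact two-sided permutation test was 0.897 throughout. The smallest unadjusted p that 5 libraries against 5 allow is 0.00794.

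At 4 h eNAMPT alone raised a short list of inflammatory genes, while nearly all other transcripts did not pass the test. Of 12111 genes tested, 18 rose (0.149%) and 3 fell (0.0248%) at a Benjamini-Hochberg adjusted p under 0.05 in edgeR's quasi-likelihood test with replicate number as a block. Either direction counted, 21 genes passed (0.173%). At an unadjusted p under 0.05 there were 659 genes (5.44%), of which 363 were higher (3%) and 296 lower (2.44%), where 606 would be if no gene differed. Without the block, 9 rose and 0 fell, with 437 genes at an unadjusted p under 0.05. Those 9 were CXCL8, CCL2, NFKBIA, IER3, CXCL1, VCAM1, PTX3, TNFAIP3 and BIRC3. The other 12 calls, for CXCL6, CXCL3, SOD2, CLDN1, JUNB, IRF1, EGR1, IFI44L, MX1, NR2F2, STC1 and IL11, ended without the block. CXCL3 (adjusted p 0.0569) and CXCL6 (0.0582) missed narrowly there. In bulk RNA a change in the number of cells that carry a transcript and a change in the amount per cell cannot be told apart.

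**Figure D1:**
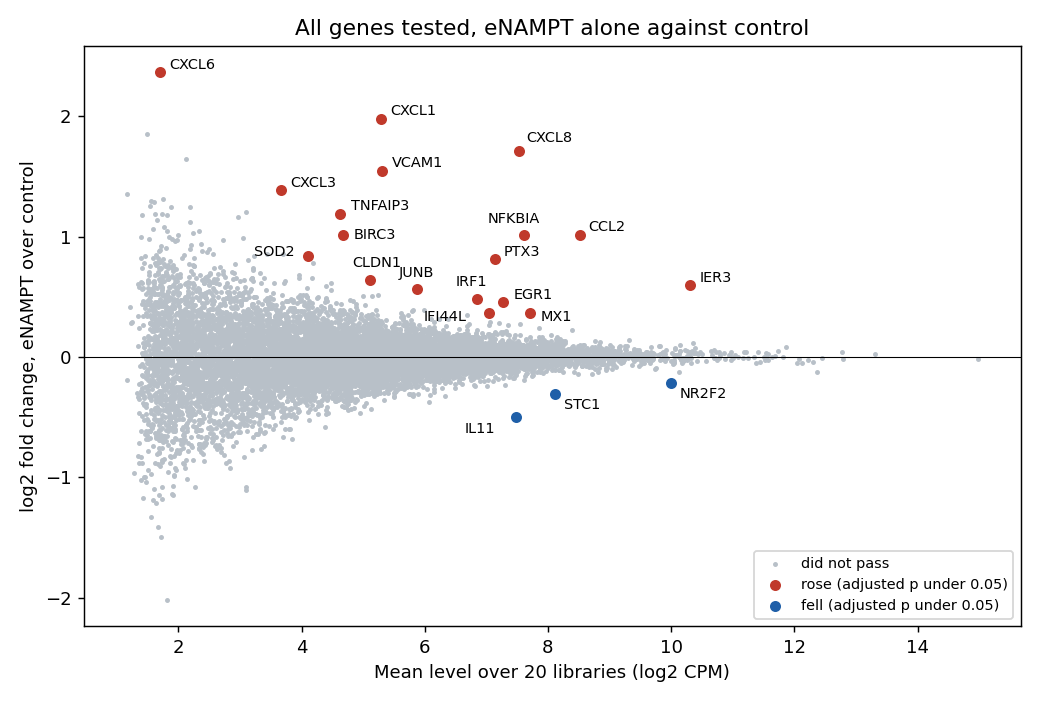
Log2 fold change of each of the 12111 tested genes (eNAMPT over control, vertical) against its mean level over 20 libraries (log2 CPM, horizontal); red points rose and blue points fell at an adjusted p under 0.05, grey points did not pass. The 18 red points lie at or above the upper edge of a grey cloud that narrows as the level rises, and the 3 blue points have levels above 7 on the log2 CPM scale.

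The largest log2 fold changes of the genes that passed belonged to chemokines. The neutrophil attractants CXCL1 and CXCL8 and the monocyte attractant CCL2 each had all 5 eNAMPT libraries above all 5 control libraries, as had 48 of the 12111 genes (0.396%). CXCL1 (ENSG00000163739, chr4:73869393-73871242) read 57.4, 55.8, 54.0, 41.4 and 55.5 CPM in eNAMPT replicates 1 to 5, against 10.1, 14.5, 15.1, 11.5 and 16.0 CPM in control replicates 1 to 5. The lowest eNAMPT library, replicate 4, is still over every control library. CXCL1 rose by 1.98 on the log2 scale (SE 0.15, adjusted p 6.08e-23). CXCL8, interleukin 8 (ENSG00000169429, chr4:73740506-73743716), read 120, 152, 131, 104 and 188 CPM with eNAMPT, against 45.0, 42.0, 47.6, 24.8 and 53.2 CPM in control. Replicate 4 was the lowest and replicate 5 the highest in both groups. The log2 fold change of CXCL8 was 1.71 (SE 0.09, adjusted p 1.22e-35). CCL2 (ENSG00000108691, chr17:34255218-34257203) read 281, 303, 300, 351 and 435 CPM with eNAMPT, against 149, 145, 161, 147 and 226 CPM in control. Replicate 5 was again the highest in both groups. The log2 fold change of CCL2 was 1.01 (SE 0.06, adjusted p 1.92e-31).

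CXCL3 and CXCL6, which like CXCL1 signal through CXCR2, were expressed at low levels. CXCL3 (ENSG00000163734, chr4:74036589-74038807) read 6.80, 14.9, 11.2, 9.24 and 10.4 CPM with eNAMPT, against 2.45, 5.17, 8.54, 1.6 and 2.73 CPM in control. The groups overlap, because control replicate 3 exceeds eNAMPT replicate 1, but the eNAMPT library was the higher one in 5 of 5 numbers. The log2 fold change of CXCL3 was 1.38 (SE 0.28, adjusted p 0.00171), and the call ended when replicate 4 was left out of all groups (1.19, adjusted p 0.0672). CXCL6 (ENSG00000124875, chr4:73836497-73849064) read 3.85, 1.59, 3.27, 5.42 and 4.24 CPM with eNAMPT, against 0.918, 0.323, 0.328, 0.801 and 1.02 CPM in control, from 60 counts in all with eNAMPT and 11 in control. It had the largest log2 fold change of the genes that passed, 2.36 (SE 0.57, adjusted p 0.0392), on the fewest counts. That call ended in 8 of the 10 fits that left out 1 library: without eNAMPT replicate 1 (adjusted p 0.109), 3 (0.0583), 4 (0.21) or 5 (0.253), or control replicate 1 (0.0613), 2 (0.15), 3 (0.219) or 4 (0.163). Of the 9 CXC chemokines tested, 4 rose and 0 fell, with a median log2 fold change of 0.97 against -0.0008 over all genes. CXCL1, CXCL2 and CXCL3 are close copies, and how the counting treated reads that match several of them is not given in the sources used here. Of the 12 CC and CX3C chemokines listed, only CCL2 and CCL5 were tested. CCL5, a T cell attractant, stood at 9.51 ± 4.63 CPM with eNAMPT and 7.04 ± 3.07 CPM in control and did not pass (log2 fold change 0.42, adjusted p 0.985).

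Classical inflammatory cytokines were scarce in these cells. TNF had 0 counts in all 10 libraries. IL1B, the interleukin 1 beta gene, stood at 10.1 ± 2.52 CPM with eNAMPT and 5.70 ± 2.21 CPM in control (log2 fold change 0.86, adjusted p 0.338). IL6 stood at 2.99 ± 1.11 CPM with eNAMPT and 1.30 ± 0.663 CPM in control (1.12, adjusted p 0.892). Of 10 cytokine genes tested 0 rose in edgeR and 1 fell, IL11, described with the falls below. An unadjusted p under 0.05 was found for 2 on the higher side and 1 on the lower side, against 3% and 2.44% of all genes.

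VCAM1, the endothelial and mural adhesion molecule bound by leukocyte integrins (ENSG00000162692, chr1:100719742-100739045), rose. It read 41.7, 40.9, 41.4, 50.4 and 37.5 CPM with eNAMPT, against 21.7, 7.75, 12.5, 13.4 and 17.7 CPM in control. The eNAMPT libraries lie close together and all above the control libraries. The log2 fold change of VCAM1 was 1.54 (SE 0.15, adjusted p 2.77e-15). ICAM1, another integrin ligand, stood at 11.8 ± 4.07 CPM with eNAMPT and 6.80 ± 2.81 CPM in control, overlapping between groups (log2 fold change 0.78, adjusted p 0.278). Of 5 adhesion molecules tested, 1 rose and 0 fell.

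Of the inhibitors that NF-kB induces, NFKBIA and TNFAIP3 rose. NFKBIA encodes IkB-alpha, which binds NF-kB dimers in the cytoplasm (ENSG00000100906, chr14:35401511-35404749). It read 271, 260, 253, 270 and 279 CPM with eNAMPT, against 140, 140, 136, 114 and 132 CPM in control. Each group spans a narrow range and the ranges are far apart. NFKBIA rose by 1.01 on the log2 scale (SE 0.06, adjusted p 4.65e-28). TNFAIP3 encodes A20, a ubiquitin-editing enzyme that restrains the pathway (ENSG00000118503, chr6:137867188-137883312). It read 28.1, 25.7, 24.8, 16.3 and 26.4 CPM with eNAMPT, against 17.7, 9.04, 9.19, 10.1 and 6.82 CPM in control. The groups overlap by 1 library on each side, control replicate 1 and eNAMPT replicate 4. TNFAIP3 rose by 1.19 on the log2 scale (SE 0.18, adjusted p 1.79e-06).

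The other 9 feedback genes and all 5 NF-kB subunits did not pass, and most had positive log2 fold changes, 4 of the 5 subunits among them. ZC3H12A, an RNase that degrades cytokine mRNAs, read 9.17, 7.61, 10.9, 10.8 and 14.4 CPM with eNAMPT, against 6.12, 5.81, 3.61, 4.01 and 2.73 CPM in control (log2 fold change 1.21, SE 0.30, adjusted p 0.0541). It lies just outside the threshold although its groups do not overlap, and it passed without eNAMPT replicate 2 (adjusted p 0.0379) or control replicate 1 (0.0209) or 2 (0.026). NFKBIZ, the nuclear co-regulator IkB-zeta, stood at 39.7 ± 1.62 CPM with eNAMPT and 28.3 ± 7.41 CPM in control (0.51, adjusted p 0.149). RELB, the subunit of the non-canonical pathway, stood at 32.0 ± 4.26 CPM with eNAMPT and 22.4 ± 3.38 CPM in control (0.51, adjusted p 0.164). In both NFKBIZ and RELB all 5 eNAMPT libraries exceeded all 5 control libraries. NFKB1, the precursor of p50, stood at 68.7 ± 5.34 CPM with eNAMPT and 55.4 ± 7.70 CPM in control (0.31, adjusted p 0.278). The c-Rel gene REL stood at 11.5 ± 4.12 CPM with eNAMPT and 7.19 ± 2.95 CPM in control (0.63, adjusted p 0.898). Of 11 inhibitors and feedback genes tested, 2 rose and 0 fell with a median log2 fold change of 0.26. Of the 5 subunits 0 passed in edgeR, and the median was 0.31. An unadjusted p under 0.05 was found for 3, all higher, against 3% of all genes on the higher side.

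**Figure D2:**
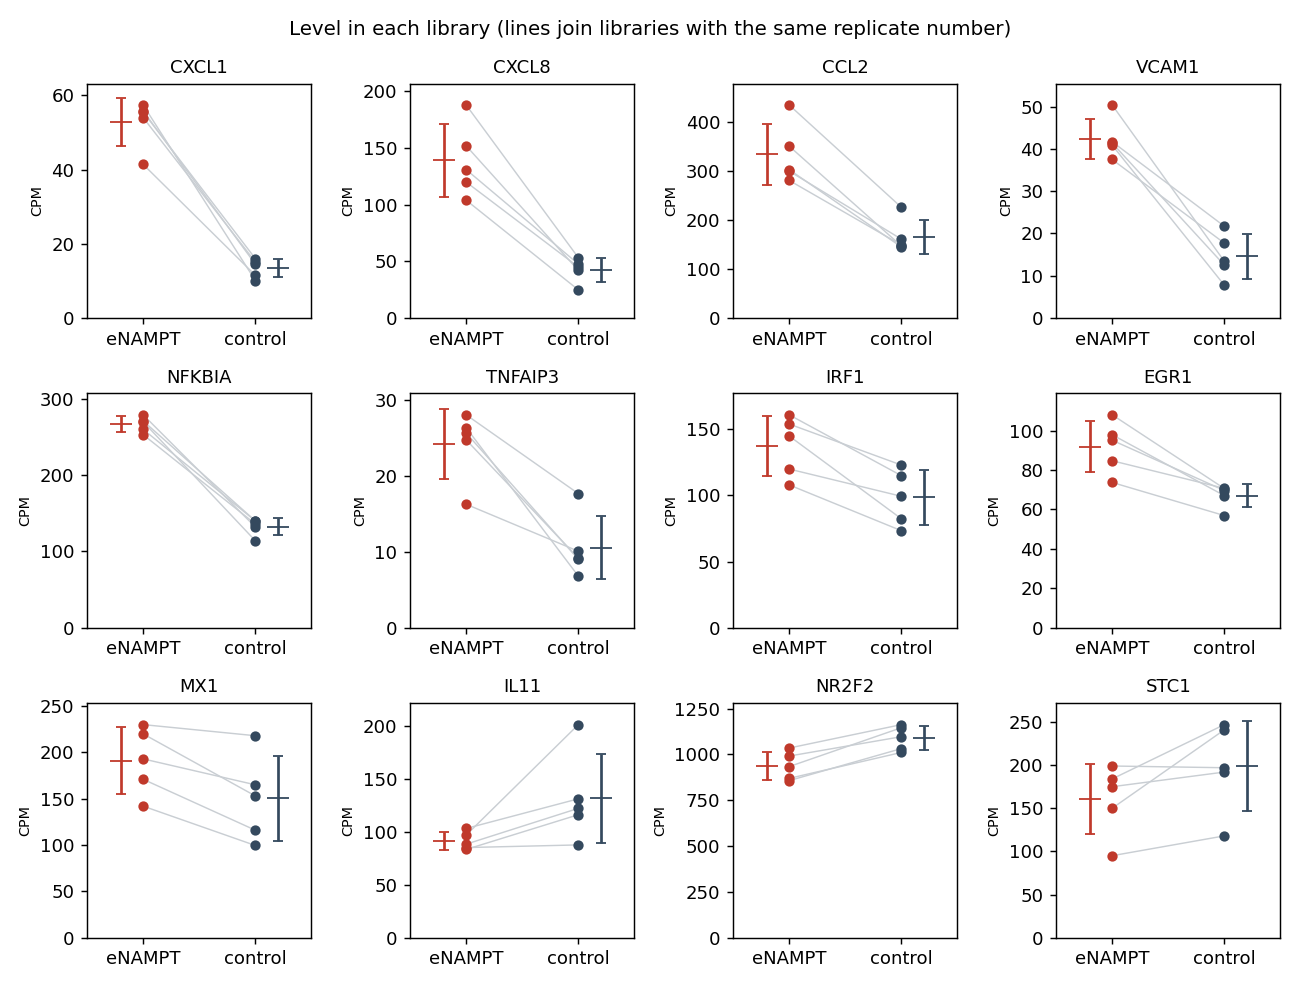
Level of 12 genes (CPM, vertical, each panel from 0) in the 5 eNAMPT libraries on the left and the 5 control libraries on the right, with lines joining libraries of the same replicate number; the horizontal tick and bar beside each group are the mean and 1 SD. In CXCL1, CXCL8, CCL2, VCAM1, NFKBIA and EGR1 the groups do not overlap, while in TNFAIP3, IRF1, MX1, IL11, NR2F2 and STC1 they overlap.

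Of the adaptors and survival genes of the TNF receptor complex, BIRC3 rose. BIRC3 encodes the ubiquitin ligase cIAP2 (ENSG00000023445, chr11:102317450-102339403). It read 21.9, 18.1, 24.0, 30 and 43.4 CPM with eNAMPT, against 10.4, 15.5, 12.5, 10.4 and 18.8 CPM in control. Control replicate 5 exceeds eNAMPT replicate 2, and eNAMPT replicate 5 is the highest. BIRC3 rose by 1.01 on the log2 scale (SE 0.17, adjusted p 4.26e-05). Its neighbour BIRC2, which encodes cIAP1, stood at 170 ± 20.3 CPM with eNAMPT and 142 ± 8.64 CPM in control (0.26, adjusted p 0.119). It passed without eNAMPT replicate 2 (adjusted p 0.00745), the only eNAMPT library below its control of the same number. TNFRSF1A, the main TNF receptor, read 89.3, 85.9, 82.9, 88.6 and 86.2 CPM with eNAMPT, against 103, 108, 96.2, 90.5 and 110 CPM in control. All 5 eNAMPT libraries were below all 5 control libraries, as for 31 of the 12111 genes (0.256%), but TNFRSF1A did not pass (-0.22, adjusted p 0.773). Of 18 genes of this list 1 rose and 0 fell, with a median of 0.11.

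The receptor chain that leads to NF-kB showed no call. TLR4 (chr9) read 27.5, 33.6, 23.4, 26.5 and 29.4 CPM with eNAMPT, against 32.4, 41.7, 41.0, 32.6 and 38.2 CPM in control. The eNAMPT library was the lower one in 5 of 5 numbers, yet the groups overlap and the log2 fold change of -0.41 (SE 0.14) did not pass (adjusted p 0.576). IRAK2, a kinase of the TLR and interleukin 1 receptor complexes, stood at 7.79 ± 3.00 CPM with eNAMPT and 3.34 ± 1.12 CPM in control (1.17, adjusted p 0.191). It passed only when control replicate 2 was left out (adjusted p 0.019) among the 10 fits without 1 library. Of the 15 members tested 0 passed in edgeR, and the median was -0.0024. On each side 1 had an unadjusted p under 0.05, against 3% of all genes higher and 2.44% lower. NAMPT itself stood at 66.6 ± 4.61 CPM with eNAMPT and 64.5 ± 6.48 CPM in control (0.05, adjusted p 0.993).

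Secreted and enzymatic effectors of inflammation formed a further small group. PTX3, the soluble pattern recognition protein pentraxin 3 (ENSG00000163661, chr3:157436789-157443628), read 113, 98.0, 99.2, 102 and 159 CPM with eNAMPT, against 69.2, 59.7, 62.4, 45.4 and 89.7 CPM in control. The groups do not overlap, and replicate 5 is the highest in both. PTX3 rose by 0.81 on the log2 scale (SE 0.08, adjusted p 4.89e-14). IRF1, the interferon regulatory transcription factor (ENSG00000125347, chr5:132481609-132490798), read 154, 161, 145, 120 and 108 CPM with eNAMPT, against 123, 115, 82.4, 99.4 and 73.4 CPM in control. The ranges overlap, but each eNAMPT library exceeds the control of its number, and replicate 5 is the lowest in both groups. IRF1 rose by 0.48 on the log2 scale (SE 0.08, adjusted p 1.2e-05). SOD2, the mitochondrial superoxide dismutase (ENSG00000112096, chr6:159669057-159745186), read 19.2, 24.7, 18.0, 14.7 and 17.0 CPM with eNAMPT, against 8.87, 14.2, 6.57, 9.08 and 13.3 CPM in control. The groups do not overlap, by a margin of 14.7 against 14.2 CPM. SOD2 rose by 0.84 on the log2 scale (SE 0.20, adjusted p 0.0404). The SOD2 call ended without eNAMPT replicate 1 (adjusted p 0.0522), 2 (0.244), 3 (0.146) or 5 (0.182), or control replicate 1 (0.324), 3 (0.423) or 4 (0.131), and in DESeq2 (0.0516). Of the 14 effectors tested 3 rose and 0 fell, with a median of 0.12. Of 21 NRF2 antioxidant genes SOD2 was the 1 that rose, and the median was 0.04.

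Immediate early genes, which cells switch on within minutes of a stimulus, gave 3 rises and 0 falls among the 21 tested at 4 h. IER3, a stress and survival gene (ENSG00000137331, chr6:30743199-30744554), read 1019, 969.3, 1142, 1111 and 1445 CPM with eNAMPT, against 713, 667, 769, 687 and 914 CPM in control. The groups do not overlap and each number shows a similar step. IER3 rose by 0.60 on the log2 scale (SE 0.04, adjusted p 5.01e-23). EGR1, a zinc finger transcription factor (ENSG00000120738, chr5:138465490-138469315), read 73.7, 84.7, 95.1, 97.9 and 108 CPM with eNAMPT, against 56.9, 70.7, 69.6, 67.0 and 70.6 CPM in control. The groups do not overlap, with replicate 1 lowest in both. EGR1 rose by 0.45 on the log2 scale (SE 0.08, adjusted p 0.000252), and the call ended without eNAMPT replicate 5 (0.36, adjusted p 0.056). JUNB, an AP-1 subunit (ENSG00000171223, chr19:12791496-12793315), read 41.4, 54.2, 69.2, 64.4 and 59.7 CPM with eNAMPT, against 37.9, 41.7, 42.7, 42.7 and 30.7 CPM in control. Only eNAMPT replicate 1 lies within the control range. JUNB rose by 0.56 on the log2 scale (SE 0.12, adjusted p 0.00221), and the call ended without eNAMPT replicate 5 (0.47, adjusted p 0.124). The JUNB call also ended when replicate 3 (adjusted p 0.0843) or 5 (0.127) was left out of all groups. The list's median was 0.03.

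Genes that report ERK activity did not follow EGR1. Of 19 ERK output and feedback genes 15 had a negative log2 fold change and 0 passed in edgeR. An unadjusted p under 0.05 was found for 2, both lower, against 2.44% of all genes on the lower side. The list's median was -0.15, while over all 12111 genes 49.8% of log2 fold changes were positive. PHLDA1, a growth factor induced gene, stood at 121 ± 34.3 CPM with eNAMPT and 142 ± 36.3 CPM in control (-0.24, adjusted p 0.338), with the eNAMPT library lower in 5 of 5 numbers. DUSP6, a phosphatase that acts on ERK, stood at 37.4 ± 9.61 CPM with eNAMPT and 47.6 ± 16.1 CPM in control (-0.33, adjusted p 0.692).

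Interferon-stimulated genes mostly had small positive log2 fold changes, of which 2 passed. MX1, an antiviral GTPase (ENSG00000157601, chr21:41420304-41459214), read 193, 230, 142, 220 and 171 CPM with eNAMPT, against 165, 218, 99.5, 153 and 116 CPM in control. The ranges overlap widely, yet each eNAMPT library is above the control of its number. MX1 rose by 0.36 on the log2 scale (SE 0.07, adjusted p 0.000805). IFI44L (ENSG00000137959, chr1:78619922-78646145), another interferon-induced gene, read 119, 124, 97.6, 148 and 106 CPM with eNAMPT, against 75.9, 133, 78.5, 94.8 and 81.5 CPM in control. Replicate 2 goes the other way, making it 4 of 5 numbers, where the other 17 genes that rose had 5 of 5. Its log2 fold change was 0.36 (SE 0.08, adjusted p 0.0211). That call ended without eNAMPT replicate 1 (adjusted p 0.0522), 3 (0.166), 4 (0.0799) or 5 (0.0753), or control replicate 1 (0.422), 4 (0.424) or 5 (0.0689), and in DESeq2 (0.202). OAS3, an antiviral nucleotide synthetase, stood at 145 ± 23.8 CPM with eNAMPT and 119 ± 25.2 CPM in control (0.28, adjusted p 0.108), and it passed without control replicate 2 (0.36, adjusted p 0.0071). Of 31 interferon-stimulated genes tested, 2 rose and 0 fell, 25 had a positive log2 fold change, and 12 had an unadjusted p under 0.05, all higher, against 3% of all genes on the higher side. The list's median was 0.13. Summed over the list the level was 2920 to 3950 CPM with eNAMPT and 2650 to 3820 CPM in control. The 14 genes of MHC class I and peptide loading, often induced with these, had 0 calls in edgeR, 2 at an unadjusted p under 0.05, both higher, and a median of 0.05.

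CLDN1, NR2F2 and STC1 passed and belong to none of the lists. CLDN1, a tight junction protein (ENSG00000163347, chr3:190305701-190322475), rose. It read 26, 26.3, 32.2, 37.0 and 40.5 CPM with eNAMPT, against 20.2, 16.1, 14.1, 22.2 and 32.4 CPM in control. Control replicate 5 lies inside the eNAMPT range. CLDN1 rose by 0.64 on the log2 scale (SE 0.15, adjusted p 0.0173). That call ended without eNAMPT replicate 3 (adjusted p 0.182) or 5 (0.14), or control replicate 2 (0.0539), 3 (0.206) or 4 (0.163). The CLDN1 call also ended when replicate 2 (0.0664), 3 (0.485) or 4 (0.217) was left out of all groups.

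The 3 genes that fell did so by less than most of the rises, and in none of them did the groups separate. IL11, a cytokine of the interleukin 6 family tied to fibroblast activation (ENSG00000095752, chr19:55364389-55370463), read 88.2, 85.0, 96.7, 83.2 and 103 CPM with eNAMPT, against 122, 87.5, 201, 116 and 131 CPM in control. Every eNAMPT library lies below the control of its number, most in replicate 3, where the control is the highest of all 10 libraries. Its log2 fold change was -0.50 (SE 0.08, adjusted p 2.73e-05). The call held in each of the 10 fits without 1 library (adjusted p up to 0.0426), but it ended when replicate 3 was left out of all groups (-0.33, adjusted p 0.22) and in DESeq2 (adjusted p 0.267). STC1, the secreted glycoprotein stanniocalcin 1 (ENSG00000159167, chr8:23841915-23854807), read 184, 199, 150, 95.0 and 175 CPM with eNAMPT, against 247, 197, 241, 118 and 192 CPM in control. Replicate 4 is the lowest in both groups and replicate 2 is level. Its log2 fold change was -0.31 (SE 0.07, adjusted p 0.0173). The call ended without eNAMPT replicate 3 (adjusted p 0.166) or 4 (0.39), or control replicate 1 (0.264) or 3 (0.733), in limma-voom (0.0557) and in DESeq2 (0.939). NR2F2, the orphan nuclear receptor COUP-TFII known for venous identity (ENSG00000185551, chr15:96325938-96340263), read 991, 869, 857, 934 and 1035 CPM with eNAMPT, against 1097, 1011, 1032, 1146 and 1163 CPM in control. Only eNAMPT replicate 5 reaches the control range, and each number shows a step of similar size. Its log2 fold change was -0.22 (SE 0.04, adjusted p 0.00108), the smallest in size of the 21, and the call ended without eNAMPT replicate 4 (-0.18, adjusted p 0.0548).

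**Figure D3:**
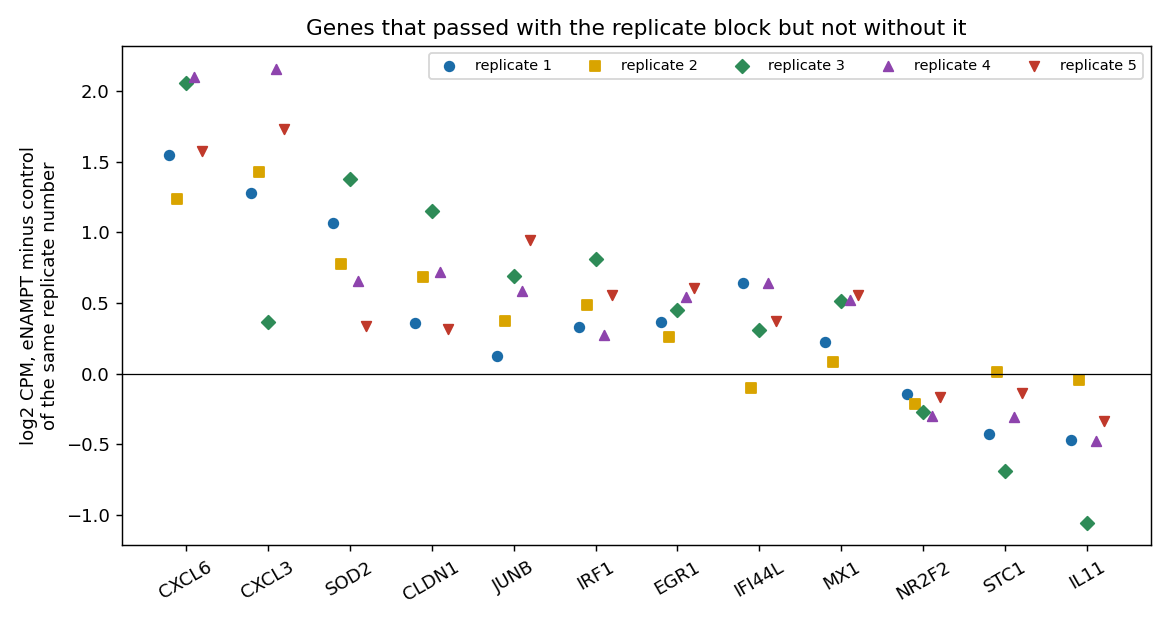
Difference in log2 CPM between the eNAMPT and control libraries of the same replicate number (vertical), for the 12 genes that passed with the replicate block but not without it (horizontal); each symbol is 1 replicate number. All 5 symbols lie on one side of 0 in each gene except IFI44L and STC1, where replicate 2 lies just across.

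Several of these genes share exons with another gene in GENCODE 29, and whether the counting used strand is not given in the sources used here, so reads of the overlap cannot be assigned. This holds for IER3 (with IER3-AS1), PTX3 (VEPH1), TNFAIP3 (AL357060.1), IRF1 (AC116366.3 and C5orf56), MX1 (AP001610.1), JUNB (HOOK2), NR2F2 (MIR1469), CXCL6 (PPBPP1) and SOD2 (WTAP and a further entry named SOD2).

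Among the genes just beyond the threshold on the higher side, SDC4, the cell surface proteoglycan syndecan 4, stood at 295 ± 25.4 CPM with eNAMPT and 252.5 ± 18.7 CPM in control (log2 fold change 0.22, adjusted p 0.0552). It passed without eNAMPT replicate 4 (0.26, adjusted p 0.0155) or control replicate 4 (0.25, adjusted p 0.0352). EDN1, the vasoconstrictor peptide endothelin 1, stood at 102 ± 23.6 CPM with eNAMPT and 80.7 ± 21.3 CPM in control (0.35, adjusted p 0.0819), higher in 5 of 5 numbers. It passed without eNAMPT replicate 4 (0.42, adjusted p 0.0166). ETS2, a transcription factor, stood at 65.8 ± 6.20 CPM with eNAMPT and 50.3 ± 6.04 CPM in control (0.39, adjusted p 0.097), with no overlap.

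Among genes that did not pass on the lower side, KIF13B, a kinesin motor, read 5.32, 5.07, 4.09, 4.46 and 4.90 CPM with eNAMPT, against 15.6, 10.0, 7.55, 9.88 and 8.53 CPM in control. The groups do not overlap, but the log2 fold change of -1.10 (SE 0.29) had an adjusted p of 0.106. MAPK8IP2, a scaffold of JNK signalling, stood at 1.14 ± 0.902 CPM with eNAMPT and 4.56 ± 2.11 CPM in control (-2.02, adjusted p 0.111), and it passed without eNAMPT replicate 4 (-2.62, adjusted p 0.0155) or control replicate 3 (-2.37, adjusted p 0.043). ZIC4, a zinc finger transcription factor, stood at 12.1 ± 2.22 CPM with eNAMPT and 19.4 ± 3.30 CPM in control (-0.68, adjusted p 0.293), with no overlap. NUP214, a nuclear pore protein, stood at 58.7 ± 5.77 CPM with eNAMPT and 75.9 ± 10.1 CPM in control (-0.37, adjusted p 0.164), and it passed without control replicate 1 (-0.46, adjusted p 0.0322). In all, 69 of the 12111 genes had groups that did not overlap and yet did not pass. Passing or not, 0.396% of genes had all 5 eNAMPT libraries above all 5 control libraries and 0.256% had them below. Among 5 libraries against 5 that do not differ, non-overlap in either direction has a probability of 0.00794. By itself it therefore marks no change.

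Across 38 gene lists, 18 of the 21 calls fell in 10 lists, all of them of inflammation, feedback, immediate early, interferon or antioxidant genes. A further 24 lists with at least 5 tested members had no call, and their medians ran from -0.15 to 0.31. The upper end is the NF-kB subunits and the lower end the ERK genes, both given above. Genes of the pericyte as a contractile, matrix-producing cell had medians near 0. The 16 mural markers tested had a median log2 fold change of -0.06, the 18 contractile genes -0.01, the 24 collagen and basement membrane genes -0.01, and the 22 plasminogen and metalloproteinase genes -0.05. Signalling lists of the vessel wall were as close, with -0.02 for 16 angiogenic factors, -0.07 for 9 Notch genes, -0.02 for 21 BMP and TGF-beta response genes and -0.05 for 16 YAP/TAZ targets. Proliferation and growth lists had -0.0035 for 28 genes of S phase entry and DNA replication, 0.02 for 30 mitosis genes and 0.01 for 27 ribosome biogenesis genes.

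Metabolic lists also gave no call. The 19 NAD metabolism genes tested had a median log2 fold change of -0.02. Of them 1 had an unadjusted p under 0.05, against 5.44% of all genes. The 26 genes of glycolysis and hypoxia had a median of 0.02. Within them PFKL, the liver-type phosphofructokinase subunit, read 54.1, 57.4, 52.1, 50 and 59.1 CPM with eNAMPT, against 37.6, 42.0, 42.7, 44.9 and 44.4 CPM in control. The groups do not overlap, and the log2 fold change of 0.36 (SE 0.11) had an adjusted p of 0.36. BCL6, a transcriptional repressor among the FOXO targets, stood at 18.0 ± 2.48 CPM with eNAMPT and 11.5 ± 2.74 CPM in control, also with no overlap (0.66, adjusted p 0.338). These lists were chosen with earlier results of the same data known, so their counts describe the data and carry no test of their own.

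**Figure D4:**
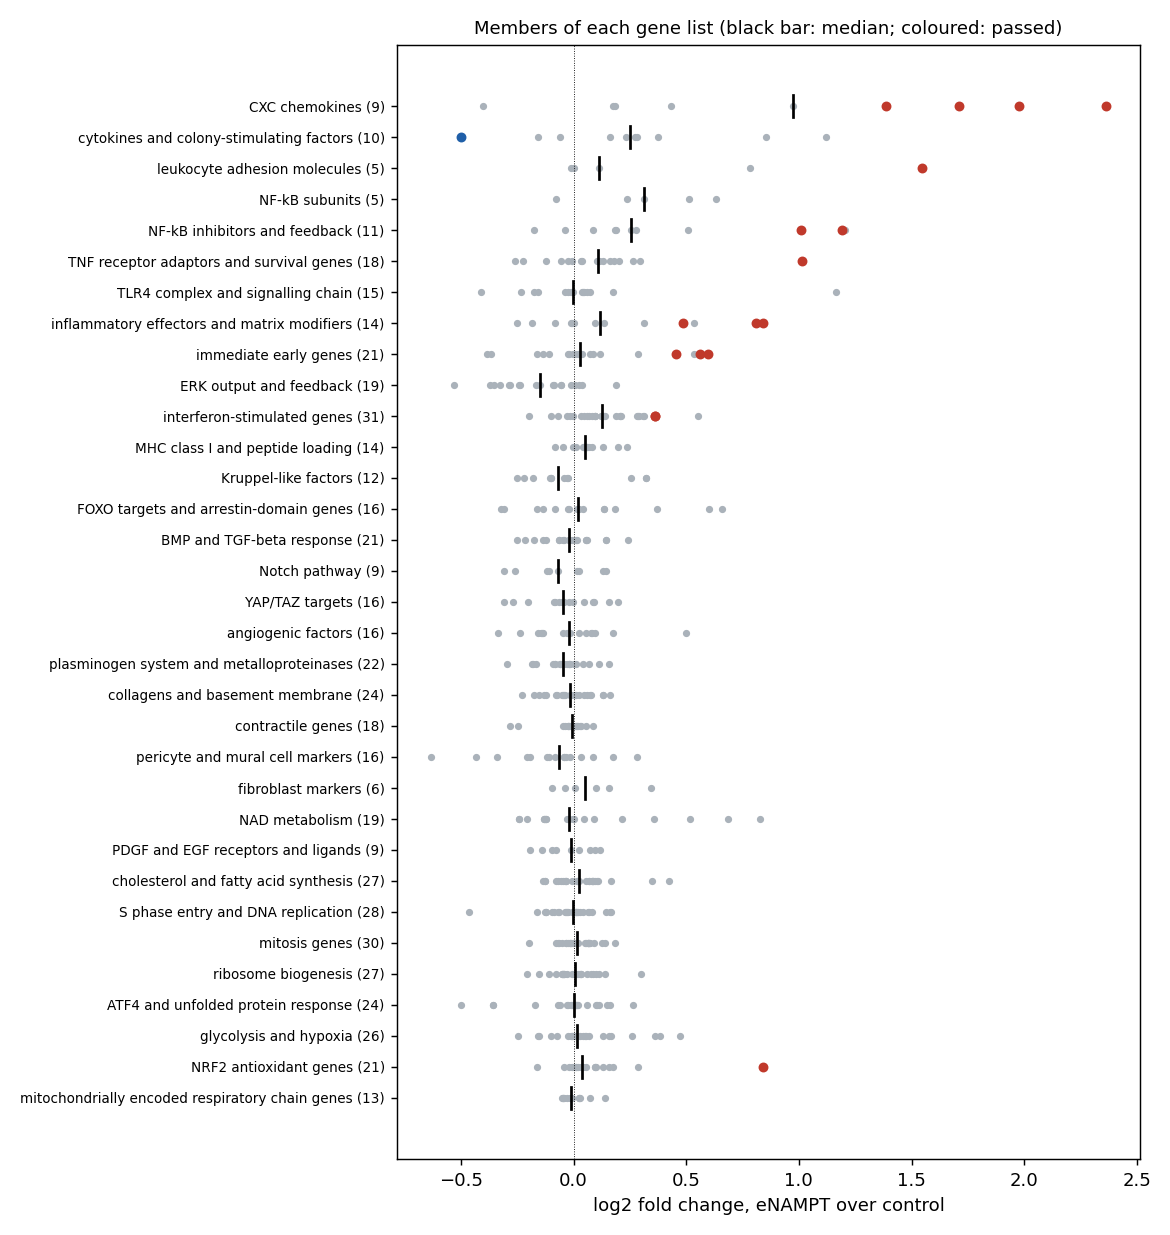
Log2 fold change (eNAMPT over control, horizontal) of the tested members of each gene list with at least 5 of them, with the number tested in brackets; red points rose and the blue point fell at an adjusted p under 0.05, grey points did not pass, and black bars are medians. Coloured points lie in the inflammatory, feedback, immediate early, interferon and antioxidant lists, and the medians of the lists with no call run from -0.15 to 0.31.

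How small a change could be seen depended on the level of the gene. Among 2376 genes with a mean of 1 to 3 on the log2 CPM scale the median SE of the log2 fold change was 0.413, and the 1 gene that passed, CXCL6, had a log2 fold change of 2.36. Among 4048 genes of 3 to 5 the median SE was 0.195, 4 rose, and the smallest change that passed was 0.841. Among 4078 genes of 5 to 7 it was 0.107, 5 rose, and the smallest was 0.485. Among 1609 genes above 7 it was 0.0627, 8 rose and 3 fell, and the smallest was 0.217. In this top class 99.1% of log2 fold changes lay within 0.25 of 0, against 48.1% in the lowest class. Of the 41 genes of the lowest class with a change over 1 in size, 1 passed. All 3 falls lie in the top class, and no change below 0.841 in a gene under a log2 CPM of 5 reached the threshold.

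The libraries with PDGF-BB give the same contrast in separate samples. There 13 genes rose and 2 fell when eNAMPT was added to PDGF-BB (0.107% and 0.0165%), and 8 genes passed in both settings, 38.1% of the 21 that passed alone and 53.3% of those 15. The 8 were CXCL8, CCL2, NFKBIA, IER3, CXCL1, PTX3, BIRC3 and CXCL3. CXCL1 stood at 65.3 ± 7.48 CPM with both factors and 22.9 ± 5.69 CPM with PDGF-BB alone (log2 fold change 1.52, SE 0.13, adjusted p 6.18e-18). NFKBIA stood at 245 ± 14.3 CPM with both and 137 ± 10.4 CPM with PDGF-BB alone (0.84, SE 0.06, adjusted p 6.86e-22). IER3 stood at 1942 ± 308 CPM with both and 1237 ± 88.9 CPM with PDGF-BB alone (0.64, SE 0.04, adjusted p 6.07e-26). With PDGF-BB the CXCL3 call ended without replicate 2 (adjusted p 0.11), 3 (0.296) or 5 (0.0602) of all groups, and the BIRC3 call without replicate 4 (0.118). The 7 genes that passed there and not with eNAMPT alone were CXCL2, GADD45A, INHBA, IL1B, NFKBIZ, PDGFRA and SNORD13, of which CXCL2, GADD45A and INHBA are named after their values were seen. Among these NFKBIZ rose by 0.82 on the log2 scale (adjusted p 3.8e-05) and IL1B by 1.01 (adjusted p 0.0121), a call that ended without replicate 1 (0.279), 2 (0.232) or 3 (0.185). PDGFRA, a PDGF receptor, and the small nucleolar RNA SNORD13 were the 2 that fell. The log2 fold change of PDGFRA was -0.37 (adjusted p 0.03), and the call ended without replicate 1 (0.0557), 2 (0.0608), 4 (0.578) or 5 (0.287). That of SNORD13 was -0.35 (adjusted p 0.00481), and the call ended without replicate 2 (0.152) or 3 (0.485).

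For the 21 genes the effect with PDGF-BB was smaller in most cases, in a set chosen for passing without it. Of the 18 that rose alone, 16 had a positive log2 fold change with PDGF-BB and 17 a smaller one. The exceptions in sign were the interferon genes MX1 (-0.03, adjusted p 0.982) and IFI44L (-0.09, adjusted p 0.955), and the 31 interferon-stimulated genes had a median of -0.02 there. Of the 3 that fell alone, IL11 (0.12) and STC1 (0.05) were on the positive side with PDGF-BB and NR2F2 (-0.02) was near 0.

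The interaction, the eNAMPT effect with PDGF-BB minus the effect without it on the log2 scale, passed for 1 gene on the positive side and 6 on the negative side (0.00826% and 0.0495%, or 0.0578% in all). It passed for 3 of the 21 genes. VCAM1 stood at 57.8 ± 10.1 CPM with both factors and 41.2 ± 6.06 CPM with PDGF-BB alone, and its interaction was -1.05 (adjusted p 0.002). The call held in the 10 fits without 1 library of the eNAMPT or control group but ended when replicate 3 was left out of all groups (-0.98, adjusted p 0.0596). CXCL8 stood at 385 ± 46.4 CPM with both and 169 ± 31.6 CPM with PDGF-BB alone, with an interaction of -0.50 (adjusted p 0.0451). That call ended without eNAMPT replicate 2 (adjusted p 0.371) or 5 (0.269), or control replicate 4 (0.357) or 5 (0.107). It also ended when replicate 2 (0.322), 4 (0.143) or 5 (0.606) was left out of all groups. IL11 stood at 254 ± 57.7 CPM with both and 232 ± 36.0 CPM with PDGF-BB alone, with an interaction of 0.62 (adjusted p 0.000968), and this call ended without control replicate 3 (0.48, adjusted p 0.0549). Without the replicate block 0 interactions passed in edgeR, with 406 at an unadjusted p under 0.05.

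**Figure D5:**
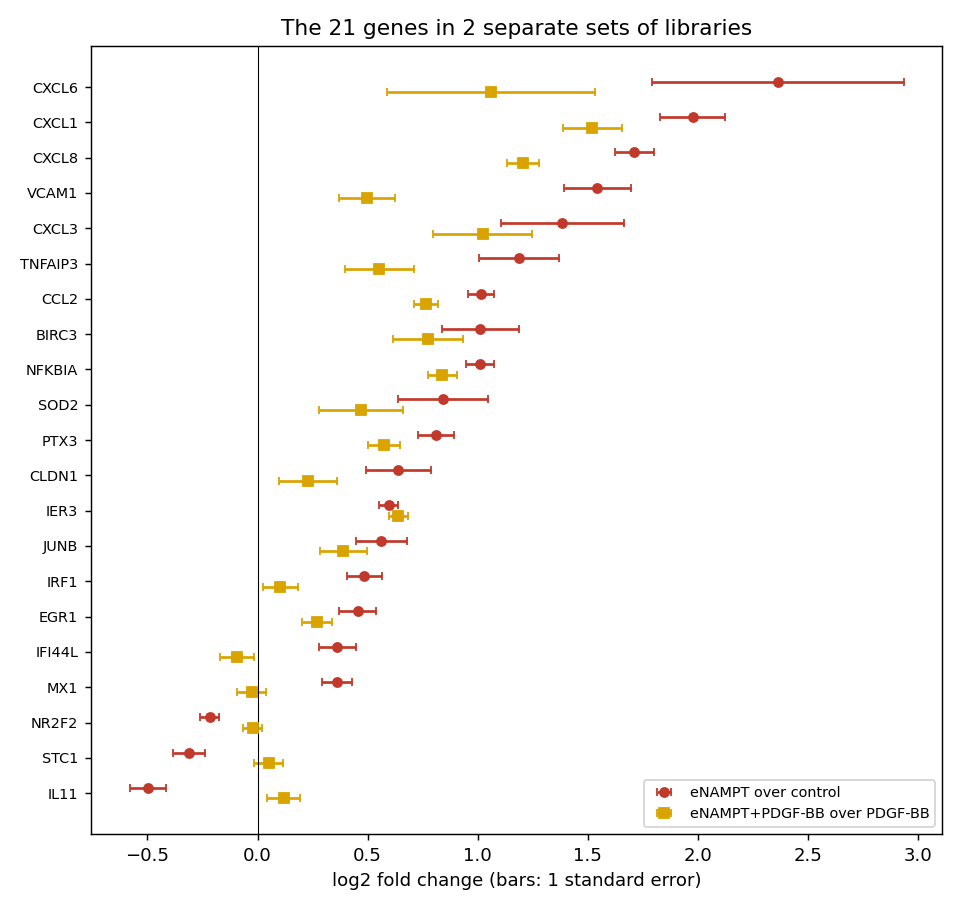
Log2 fold change (horizontal) of the 21 genes that passed with eNAMPT alone (vertical, by size), as eNAMPT over control (red circles) and as eNAMPT+PDGF-BB over PDGF-BB (yellow squares), with bars of 1 standard error. The squares lie nearer to 0 than the circles for 17 of the 18 genes that rose, IER3 being the exception, and on the other side of 0 for MX1, IFI44L, STC1 and IL11.

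Set directly against PDGF-BB, eNAMPT alone gave higher levels of some of the 21 genes and lower levels of others. Here 94 genes were higher with eNAMPT (0.776%) and 268 lower (2.21%) of 12111. NFKBIA averaged 266 ± 10.1 CPM with eNAMPT and 137 ± 10.4 CPM with PDGF-BB (log2 fold change 0.96, adjusted p 7.54e-27). CXCL1 averaged 52.8 ± 6.48 CPM with eNAMPT and 22.9 ± 5.69 CPM with PDGF-BB (1.21, adjusted p 1.82e-12). IRF1 averaged 138 ± 22.7 CPM with eNAMPT and 107 ± 13.3 CPM with PDGF-BB (0.36, adjusted p 0.000998). These 3 of the 21 were higher with eNAMPT than with PDGF-BB, while 7 were lower and 11 did not differ past the threshold.

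Those lower with eNAMPT included EGR1, at 91.8 ± 13.1 CPM with eNAMPT and 207 ± 30.2 CPM with PDGF-BB (-1.17, adjusted p 2.64e-28). IL11 averaged 91.3 ± 8.57 CPM with eNAMPT and 232 ± 36.0 CPM with PDGF-BB (-1.34, adjusted p 8.81e-31). STC1 averaged 160 ± 40.7 CPM with eNAMPT and 365 ± 47.7 CPM with PDGF-BB (-1.21, adjusted p 1.94e-32). The rest were PTX3 (-0.44, adjusted p 7.34e-06), MX1 (-0.39, 8.54e-06), IFI44L (-0.43, 5.82e-05) and CXCL8 (-0.28, 0.0152). The CXCL8 call ended without eNAMPT replicate 1 (adjusted p 0.0608), 3 (0.133) or 4 (0.186). VCAM1 averaged 42.4 ± 4.76 CPM with eNAMPT and 41.2 ± 6.06 CPM with PDGF-BB, a log2 fold change of 0.04 (adjusted p 0.943), and CCL2 334 ± 62.0 CPM with eNAMPT and 357 ± 61.3 CPM with PDGF-BB (-0.10, adjusted p 0.476).

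The authors' deposited table calls 8 genes at an adjusted p under 0.05 between eNAMPT and control, all higher with eNAMPT. All 8, CXCL8, CXCL1, CCL2, NFKBIA, IER3, VCAM1, TNFAIP3 and BIRC3, are among the 18 genes that rose here. Of the 13 genes that passed here alone, PTX3 lies nearest the threshold in the authors' deposited table (adjusted p 0.05505). The 3 genes that fell here are far from it there, NR2F2 at 0.7325 and IL11 and STC1 at 0.9998. The interferon genes MX1 and IFI44L also have 0.9998, and CLDN1 has 0.8478. That table writes control over eNAMPT, so that its value for NFKBIA, -0.94 on the log2 scale, stands for a rise with eNAMPT.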

How the data were processed

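Total RNA was extracted with the SPLIT kit, per the labels. Named in the submitters' processing notes are the assembly GRCh38, the aligner STAR (2.6.1a), the counter featureCounts (1.6.4), DESeq2 (1.18.1) and FastQC (0.11.7). Which of these made which value, and whether counting used strand, is not given in the sources used here. The authors deposited 2 tables of raw counts per gene and library. The first, used here, holds 82.9% of the counts of the other and is never the higher one, and what separates them is not given in the sources used here. It also holds log2 fold changes and p-values deposited by the authors, written as control over eNAMPT.

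The 92 ERCC and 7 SIRV spike-in rows were left out of library sizes, leaving 58676 genes. edgeR 4.0.16 (R 4.3.3) kept 12111 by filterByExpr, scaled by TMM and fitted a quasi-likelihood model to all 20 libraries with 4 group means and the replicate number as a block (12 residual degrees of freedom). P-values were adjusted by Benjamini-Hochberg over all 12111 genes, with 0.05 as the threshold. Standard errors were taken from the F statistic, as the absolute log2 fold change over the root of F. CPM values are after TMM, with mean and SD over 5 libraries. Alternatives used DESeq2 1.42.0, limma 3.58.1, other scalings, filters, the other count table and fits without 1 library or replicate number. On simulated counts of the eNAMPT against control comparison, with 50 of 12111 genes set to each size, 24% of changes of 0.3 on the log2 scale were recovered, 48% of 0.5, 70% of 1 and 90% of 1.5. Of 11911 unchanged genes 3 were called. These counts were drawn once from the fitted model itself, so the rates hold only as far as that model does. In all 200 genes were set to change, and more genes passed there than the 21 in the data. The Benjamini-Hochberg adjustment is less strict when more genes pass, so these rates may overstate what could be recovered in the data.

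The text names genes by a rule: every gene that passed, the nearest 10 by p on either side of 0 that missed the threshold, the leading 3 or fewer of a list by p, the leading 5 of the other contrasts, and NAMPT, TLR4, PDGFRB, PDGFRA, CSPG4 and RGS5. Of the 132 genes this names, the text gives a selection. Further list members named only for counts of 0 were chosen after their values were seen. The comparison and the gene lists were chosen with earlier results of these data known. Gene positions are from GENCODE 29 and promoters from RefSeq.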

Additional observations from a re-analysis of the deposited data

Results flagged for a closer look

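Over 62 genes and both groups, 124 sets of 5 libraries were searched for a library that stood apart, with a gap to its nearest neighbour of more than 0.71 of the set's range. Chance flags about 1 set in 20, and 8 were found. With eNAMPT, replicate 4 was low for CXCL1 (41.4 CPM, next 54.0 CPM) and TNFAIP3 (16.3 CPM, next 24.8 CPM). Replicate 5 was high for PTX3 with eNAMPT (159 CPM, next 113 CPM), and replicate 2 was low for ZIC4 (8.24 CPM, next 12.1 CPM). In control, replicate 5 was high for CCL2 (226 CPM, next 161 CPM) and EDN1 (117 CPM, next 80.1 CPM). Control replicate 1 was low for EGR1 (56.9 CPM, next 67.0 CPM) and control replicate 4 for IL1B (1.87 CPM, next 6.12 CPM).

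The effect of eNAMPT with PDGF-BB minus its effect without it passed in the interaction test for these named genes. On the log2 scale the difference was -1.05 for VCAM1, -0.50 for CXCL8 and 0.62 for IL11. It was -0.63 for SNORD13, -0.56 for SCARNA22 and -0.59 for FAM53C. The SCARNA22 call ended without eNAMPT replicate 3 (adjusted p 0.0529) or 5 (0.269), or without replicate 2 (0.134), 4 (0.0666) or 5 (0.351) of all groups. The FAM53C call ended without eNAMPT replicate 2 (0.257), 3 (0.0817) or 4 (0.071), or control replicate 3 (0.193) or 4 (0.0772). It also ended without replicate 1 (0.109), 2 (0.172), 3 (0.504) or 4 (0.43) of all groups. How the CXCL8, VCAM1 and IL11 calls depend on single libraries and replicate numbers is given with their values above.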

How the results depend on the processing

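Without the replicate block 9 genes rose and 0 fell (437 at an unadjusted p under 0.05), and scaling by spike-ins also gave 9 and 0 (181). The 9 differ by a gene, as spike-in scaling ended the IER3 call (adjusted p 0.0625) and kept CXCL3. DESeq2 gave 1 fall and ended the calls of IL11, SOD2, IFI44L and STC1. A fit of the 10 eNAMPT and control libraries alone, with the block, passed 25 genes. It ended the CXCL6 call (adjusted p 0.0528) and added 5 others, among them EDN1, SDC4, ZC3H12A and SNORD13. The same-numbered eNAMPT and control libraries deviated together with correlations of 0.0725, 0.0778, 0.022, 0.1148 and 0.1755. Over all 30 same-numbered pairs between groups 12 exceeded 0.1, and the mean was 0.0954. Libraries of different groups and different numbers had a mean of -0.0237, with single pairs up to 0.114. Of the 20 libraries 13 correlated best with one of their own number. The labels do not say what the shared numbers stand for, and whether they pair the samples was not tested. Leaving out 1 library or number gave 12 to 21 rises and 1 to 5 falls.

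For eNAMPT added to PDGF-BB, 7 genes passed without the block, 23 with the compared groups alone, 2 with spike-in scaling and 11 to 16 with a library or number left out. The interaction gave 0 without the block (406 unadjusted), 0 with spike-in scaling (375), 1 in DESeq2, 4 in the other count table, 3 at a threshold of 0.01 and 3 to 11 with a library or number left out. eNAMPT against PDGF-BB gave 127 without the block, 51 with spike-in scaling, 199 at a threshold of 0.01 and 213 to 367 with a library or number left out. The causes were not tested.

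Signs turned for genes near 0. With a library or number left out, the log2 fold change ran from -0.1759 to 0.04622 for RGS5 and from -0.006915 to 0.1252 for NAMPT, and with PDGF-BB from -0.08294 to 0.009747 for MX1 and from -0.05151 to 0.004305 for NR2F2. With PDGF-BB, spike-in scaling gave -0.04638 for IRF1, -0.03527 for IL11 and -0.09109 for STC1. Over 62 genes and all other settings, 1475 of 1612 log2 fold changes kept direction and call. Most of these genes had no call to lose. A call was lost in 92, all among the 21 genes that passed, a call was gained in 39, and the sign turned in 6. The depth, at most 3726752 gene counts in a library, limits what can be seen in genes of low level.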
